A study of Felis catus with 77 samples.

Results

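The genes described here had similar levels in the 3 normal tissues around feline fibrosarcoma (FSA) and much lower levels in the tumor itself. They were chosen by measured values: the median normalized count of each gene was taken per tissue, genes were kept where the medians of adipose tissue (AT), skeletal muscle (SM) and connective tissue (CT) were all at least 50 and lay within 4-fold of one another, and the 100 with the largest ratio of the smallest normal median to the tumor (T) median, each plus 1, were taken. Of 19587 gene identifiers, 19524 had a count in at least 1 library, 6346 met the limits on the normal medians, and 100 are the members. The ratio ran from 3.83 to 141 with a median of 6.41. It reached 5 for 71 members, 10 for 25 and 20 for 7. The 3 members just inside the limit had ratios of 3.92, 3.91 and 3.835, and the 3 genes just outside had 3.834, 3.78 and 3.75, so the members are the upper end of a continuous ranking and not a separate class. Since the difference between T and each normal tissue (NT) chose them, that difference is given below as a description only.

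RNA was sequenced from 77 laser-capture microdissected specimens of formalin-fixed, paraffin-embedded tissue of feline patients: 30 T, 16 AT, 11 CT and 20 SM. Each normal specimen shares a case number with a T specimen, so that it comes from the same cat. The labels give no drug treatment, age or breed, and no experimental allele or agent was applied. As limits of the model, the tumors arose spontaneously in pet cats mostly of 1 breed, the normal tissue lay next to the tumor, and an earlier vaccination was recorded for the animals. The adipose library of cat 5 carries a source label of tumor and was taken as AT by its title. Library totals ran from 847003 to 19099337 counts, with a T median of 8405498 compared to 2908520 for AT, 3904682 for CT and 12291936 for SM.

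FSA is a malignant mesenchymal tumor of the skin and subcutis whose cells resemble fibroblasts and make collagen-rich matrix. AT consists mainly of lipid-storing adipocytes, CT of fibroblasts in collagen and SM of multinucleate contractile fibers, while all of them also hold blood vessels, nerves, macrophages and mast cells. A gene with a similar level in such different tissues may be used by every cell, or by a cell type that all of them contain. In bulk RNA, fewer cells of a type and less RNA per cell cannot be told apart. The files pair no gene symbol with the identifiers, and none of them matched the reference table used here, so the members have no names, functions or sequences in this account. Members are called by their rank in the ratio, and the tissue labels could not be checked against named markers.

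The libraries were instead compared by genes restricted to a single tissue, defined from the tissue medians of these same libraries as at least 10-fold above each other tissue with a median of at least 50. High shares in the matching tissue are therefore built in, and only a single library that goes against its tissue can be seen. This gave 25 genes for AT, 42 for CT and 330 for SM, with 0 members among them. The SM genes held 36.5% to 68.2% of the counts of SM libraries and 0.386% to 2.12% of T libraries. They held 0.465% to 1.47% of 15 AT libraries, but 32.2% of the AT library of cat 6, which therefore goes against its label in part. The AT genes held 0.857% to 3.56% of AT libraries and at most 0.0573% of T libraries, and the AT library of cat 5 had 2.64%, within the AT range. Without the AT library of cat 6, 97 of the 100 members were chosen again. The libraries of cats 11 to 17 also stood apart: all 7 of their tumors had more genes detected at equal depth (15189 to 18158) than any of the other 23 tumors (12317 to 13493). The labels name no batch for these cats, and the study's methods describe a single sequencing batch. Without cats 11 to 17, 80 of the 100 members were chosen again. Membership depended more on other choices of scaling and limits: 32 of the 100 were chosen again with CPM of the library total, 36 with the normal medians within 2-fold and 60 with no limit on their ratio.

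At the level of the whole set, every tumor was below every normal specimen. The mean of log2(normalized count + 1) over the 100 members was 2.98 to 6.76 in T (median 4.50, n = 30). In AT it had a median of 8.45 and reached 8.84 (n = 16), and it was 7.73 to 8.39 in CT (median 8.17, n = 11) and 7.22 to 8.24 in SM (median 7.86, n = 20). The highest tumor lay 0.46 below the lowest normal library, a muscle library. The tumors spread far more than any normal tissue, with an SD of 1.12 against 0.26 in AT, 0.19 in CT and 0.29 in SM. As a share of all counts the members held 0.0814% to 1.68% of T libraries (median 0.203%), 0.979% to 2.42% of AT (median 1.81%), 1.18% to 2.20% of CT (median 1.62%) and 0.354% to 1.27% of SM (median 0.528%). On that scale T overlapped AT, CT and SM. Muscle-restricted genes took up a median of 60.3% of an SM library, which lowers the share of every other gene there.

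**Figure D1:**
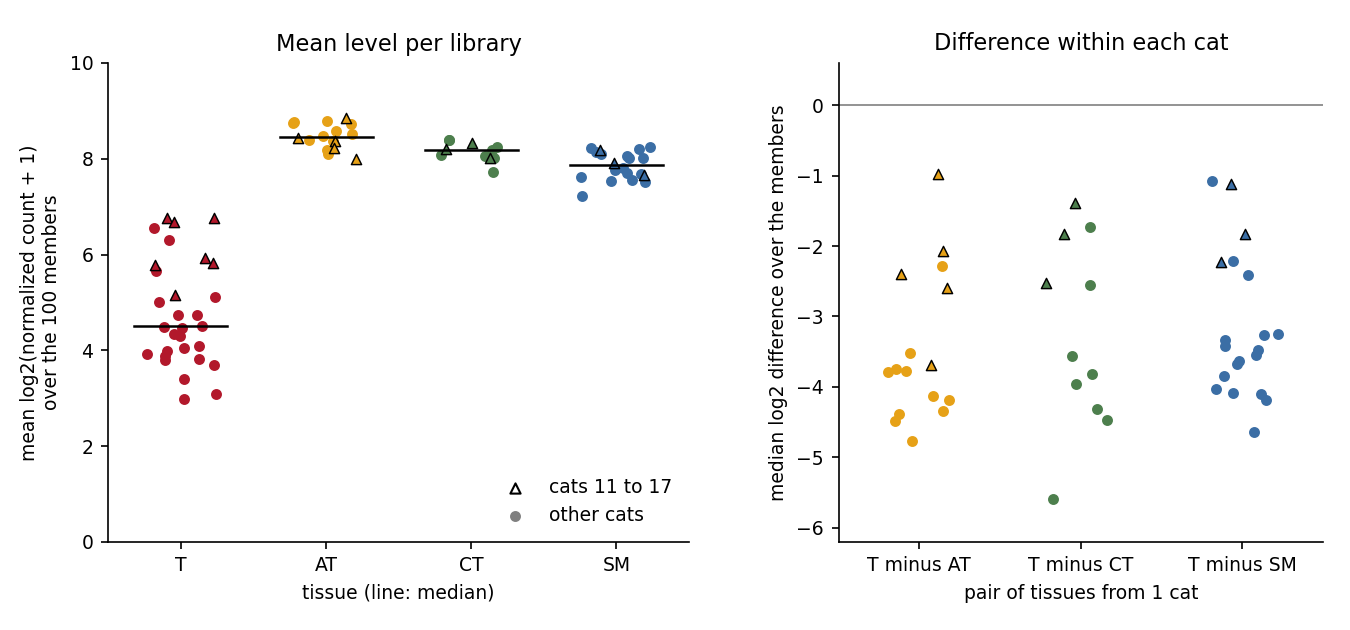
Left, mean log2(normalized count + 1) over the 100 members for each library by tissue, with a line at the median and triangles for cats 11 to 17. Right, the median over the members of the log2 difference within each pair of T and normal tissue. All 30 T libraries lie at or below 6.76 and all normal libraries at or above 7.22, and every pair lies below 0.

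**Figure D2:**
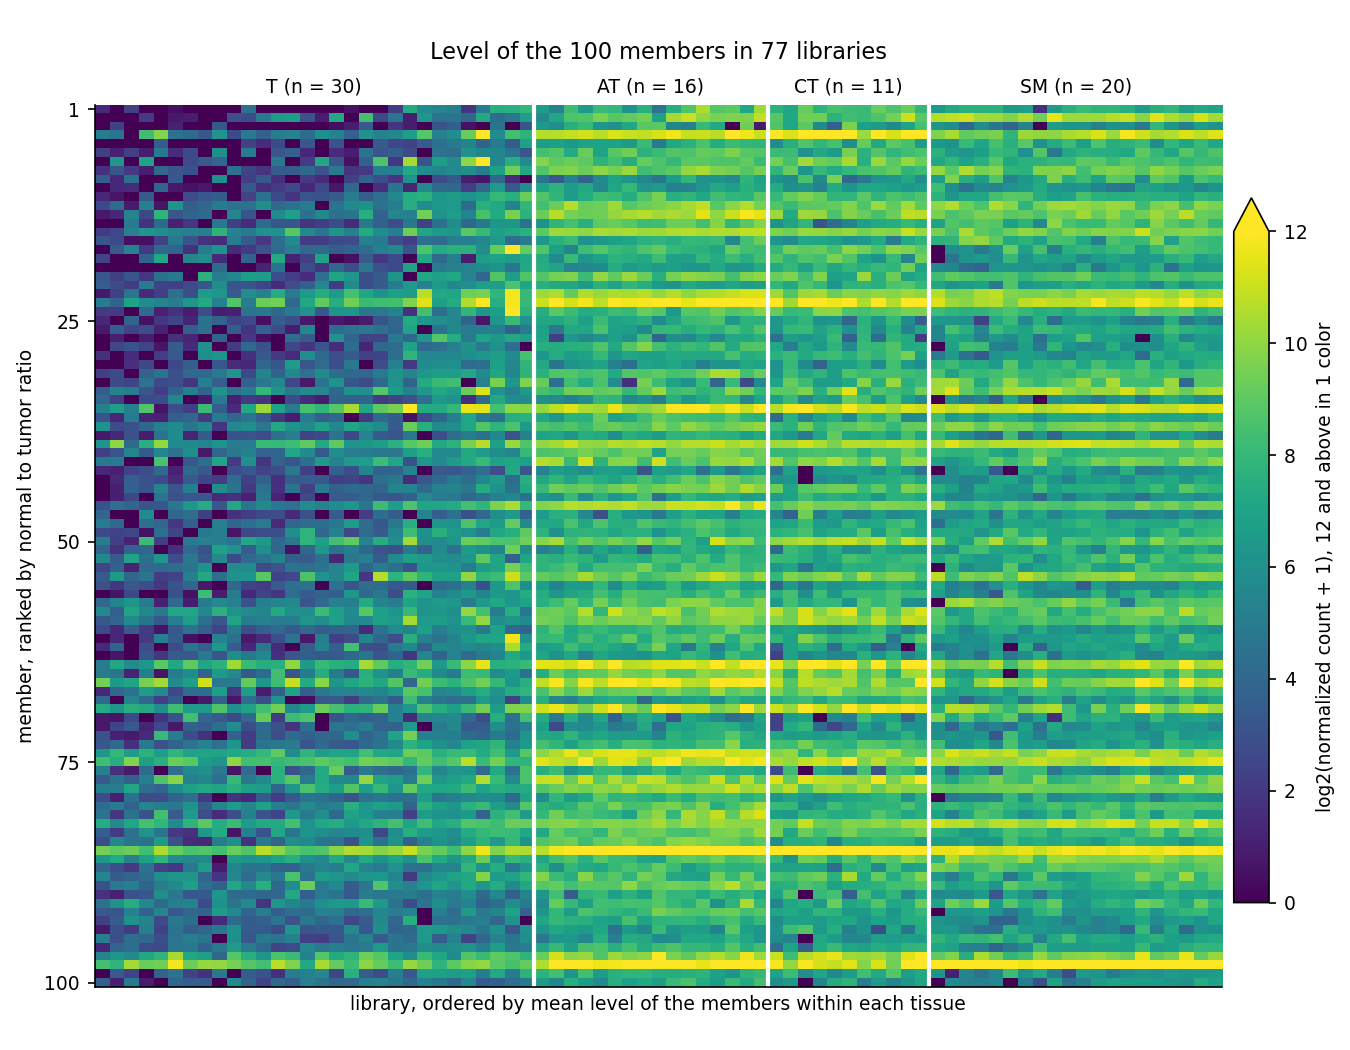
Level of each member (rows, ranked by the normal to tumor ratio) in each library (columns, by tissue and by mean level within it), as log2(normalized count + 1) in color. The T columns are dark at left and reach levels near those of normal tissue for some members at right, where the tumors with the highest mean level stand.

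Across members, the tissue median was 0 to 735 normalized counts in T, with a median over members of 22.7. The corresponding medians over members were 299 in AT, 245 in CT and 197 in SM. AT held the highest normal median for 48 members, CT for 33 and SM for 19. SM held the lowest for 62, CT for 28 and AT for 10. The rule allowed a 4-fold spread between normal tissues, and the members used much of it: the largest over the smallest normal median was 2.24 in the middle member, and 36 members kept within 2-fold. The members highest in AT had a median ratio of 5.74, those highest in CT 7.53 and those highest in SM 7.62. Their T medians were 20.6, 24.3 and 28.7 normalized counts. The split uses values of the rule and is a description with no test.

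T libraries were deeper than most AT and CT libraries, and a member still had a median of 45 raw counts in T against 223 in AT, 171 in CT and 202 in SM. In T, 214 of 3000 member values were 0 (7.13%), compared to 1 of 1600 in AT, 8 of 1100 in CT and 17 of 2000 in SM. Values of 3 counts or fewer made up 12.4% of the tumor values, against 0.563% for AT, 0.909% for CT and 1.3% for SM. The lowest members thus rest on few reads in T, with a median of 0.5 raw counts for the member with the largest ratio and 16.5 for the next. A count of 0 allows up to 3 counts, which in T is 0.912 to 12.6 normalized counts depending on the library. This floor, which covers counting error only, lies below every normal median. Of the 100 members, 42 had a count in every tumor, and 2 were at 0 in at least 15 of 30 tumors. The genes were thus lowered in T and seldom undetected, and are called low in tumor here rather than lost.

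ENSFCAG00000012782 had the largest ratio. Its normalized count in T was 0 to 248 with a median of 0.191, and it was 0 in 15 of 30 tumors. In AT it was 22.6 to 1487 (median 223), in CT 144 to 617 (median 299) and in SM 2.20 to 267 (median 166). Normal libraries reached low values too, down to 2.20 in SM and 22.6 in AT, so that single tumors and normal libraries overlapped, and 4 tumors stood at or above the smallest normal median. The high tumors were not spread evenly: the 7 tumors of cats 11 to 17 had 3.32 to 248 (median 53.8), while 15 of the other 23 were at 0 and their highest values were 167 and 30.8. Fitted between these 2 sets of tumors, the log2 fold change was 3.24 (SE 1.18, adjusted p = 0.0628, edgeR's quasi-likelihood test) and not called. The value of 248 belongs to the tumor of cat 11, which had the smallest T library total, 957697 counts.

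ENSFCAG00000026205 was second. T had 0 to 338 (median 6.73), with 7 tumors at 0 and none at or above the smallest normal median. AT had 49.5 to 2012 (median 717), CT 140 to 2177 (median 478) and SM 697 to 2969 (median 1381). Every SM library was above every tumor, whereas AT and CT each overlapped T at their lower end. T was below the normal tissue in all 16 pairs with AT, all 11 with CT and all 20 with SM.

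The next members show how differently single tumors can behave. The member ranked 3 was at 0 in 17 tumors and never above 24.7, against medians of 115 in AT, 118 in CT and 59.8 in SM. The member ranked 4 was far more abundant in normal tissue (2050 in AT, 4749 in CT, 1353 in SM) and had a T median of 39.4, but it reached 9014 in the tumor of cat 26, 10.2 times the next tumor. The member ranked 7 had the widest spread between tumors, with an interquartile range of 6.46 on the log2 scale, values from 0 to 4169 and 4 tumors at or above the smallest normal median. At the other end, the member ranked 78 had an interquartile range of 0.96, and its 30 tumors had 12.7 to 561, all below its smallest normal median of 617.

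A few abundant members hold much of the set's counts. The members ranked 85 and 98 were the most abundant member in 31 and 29 of the 77 libraries, respectively. The first had a T median of 735, compared to 7275 in AT, 9587 in CT and 3154 in SM. The second had a T median of 627, compared to 4915, 2460 and 7409. Both were below the paired normal tissue in every cat. The 5 most abundant members held 22.1% to 74.7% of the members' counts in T (median 46.1%), 33.3% in the median AT library, 39.2% in CT and 33.8% in SM. A share of library counts therefore follows these few genes, whereas the mean of log2 values weights all 100 equally.

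**Figure D3:**
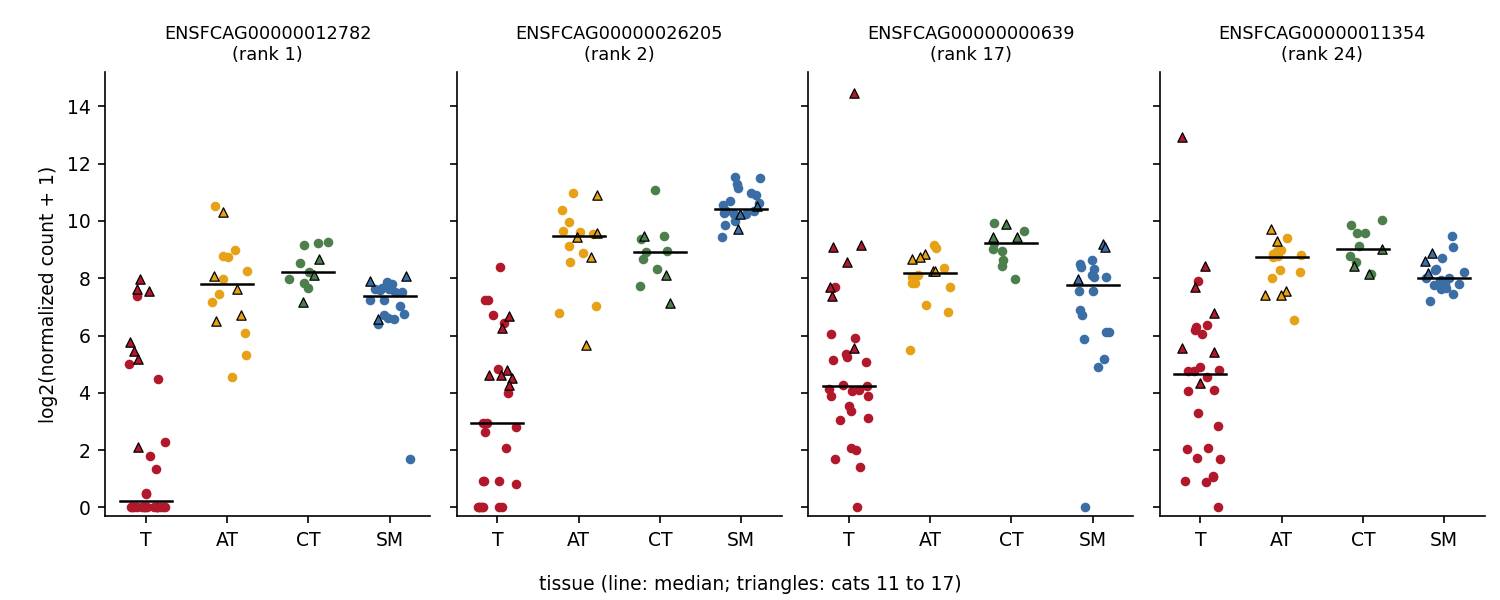
Level of 4 members as log2(normalized count + 1) in each library by tissue, with a line at the median and triangles for cats 11 to 17. The tumors of the 2 members at left range from 0 to 248 and 0 to 338 normalized counts, and in the 2 at right a single tumor stands at 22888 and 7788, above every normal library.

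Fitted across all genes, the members were lower in T by a median log2 fold change of -2.75 compared to AT, -2.18 for CT and -1.98 for SM. All 100 members passed the filter on low counts in each of these fits. With an adjusted p under 0.05 and more than 2-fold (edgeR's quasi-likelihood test with Benjamini-Hochberg adjustment), 92 of 100 were lower than AT where 10.2% of all genes tested were, 82 were lower than CT where 6.52% were, and 91 were lower than SM where 16.9% were. The rule chose the members from these contrasts, so nothing is read from the excess, and the comparisons share their tumor libraries. The median over all genes tested was 0.06, 0.14 and 0.24. Scaling by library totals alone moved it to 1.42 against SM, and the members' median there to -0.77, with 36 called lower where 5.45% of all genes were and 1 higher where 61.7% were. With the cat as a block, that is with paired libraries, the members' medians were -3.54, -2.94 and -3.15. The pairs were distributed as follows. T was lower in every pair with AT for 62 members (4.54% of the 6346 ranked genes), in every pair with CT for 44 (3.34%) and in every pair with SM for 29 (5.77%). All pairs of all tissues were lower for 11 members (0.331%). Complete separation was rarer, since every AT library was above every T library for 11 members (0.362% of ranked genes), every CT library for 5 (0.126%) and every SM library for 3 (0.709%), and for none did all 3 tissues clear every tumor.

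The members' median was lower in T within every cat that had both tissues. The members were chosen on medians of these same libraries, so this is largely built in and is a description. Taking for each cat the median over members of the log2 difference, T minus AT was -4.76 to -0.98 over 16 cats (median -3.76), T minus CT was -5.59 to -1.38 over 11 cats (median -3.57) and T minus SM was -4.64 to -1.08 over 20 cats (median -3.45). At least 89 of 100 members were lower in T in each AT pair, at least 72 in each CT pair and at least 73 in each SM pair. The same counts over all ranked genes are not given, so nothing is read from these.

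Some members were also called different between normal tissues, although the rule held their medians within 4-fold of one another. Against CT, 16 members were higher in AT (4.32% of all genes tested) and 2 were lower (2.87%). With the cat as a block the counts were 4 (1.88% of all genes) and 0 (0.729%). Against SM, 40 members were higher in AT (21.1%) and 6 lower (13.8%), and 28 were higher in CT (23.8%) and 9 lower (15.3%). The last 2 comparisons turn on the scaling, with 85 and 74 members higher and 0 lower under library totals alone, where 62.5% and 64.5% of all genes were higher and 4.73% and 4.88% lower. The rule bounded these differences, so they too are a description. Several of the counts lay near the share of all genes, and nothing about the members is read from them.

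Tumors differed strongly in how many members they kept. Counting members at or above their smallest normal median, a tumor had 0 to 29 of 100 with a median of 3, compared to 65 to 92 in AT, 59 to 80 in CT and 36 to 88 in SM. The cutoff is a normal median and the members were chosen for low T medians. The contrast between T and normal tissue in this count is therefore built in, and only the differences among tumors are described. Of the 30 tumors, 21 had 5 or fewer, and the tumors of cats 20, 21 and 33 had 0. The tumors of cats 14, 11, 17, 8, 26, 12 and 22 had 29, 26, 26, 22, 21, 19 and 12, and these 7 tumors held 155 of the 212 such values (73.1%). The tumors of cats 11, 12 and 17 among them were the 3 T libraries under 2000000 counts (957697, 1989902 and 1875842). The part of depth in these counts was not tested. By member, 23 had all 30 tumors below the smallest normal median, 58 had 1 to 3 tumors at or above it, and 19 had more, with at most 7.

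Tumors that kept many members did not all keep the same ones. The tumors of cats 11 and 17 shared 15 of their 26 each (57.7%), and the tumor of cat 14 shared 12 with either (41.4% of its own and 46.2% of theirs). The tumors of cats 8 and 26 shared 8, or 36.4% and 38.1%. Between the tumors of cats 26 and 11 only 3 were shared, 14.3% and 11.5%. Together these 7 tumors kept 71 of the 100 members, but only 23 were kept by at least 3 of them and none by more than 5. No test was applied to these overlaps. The overlap that list size alone would give, and that over all ranked genes, are not given, so none is read as high or low.

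**Figure D4:**
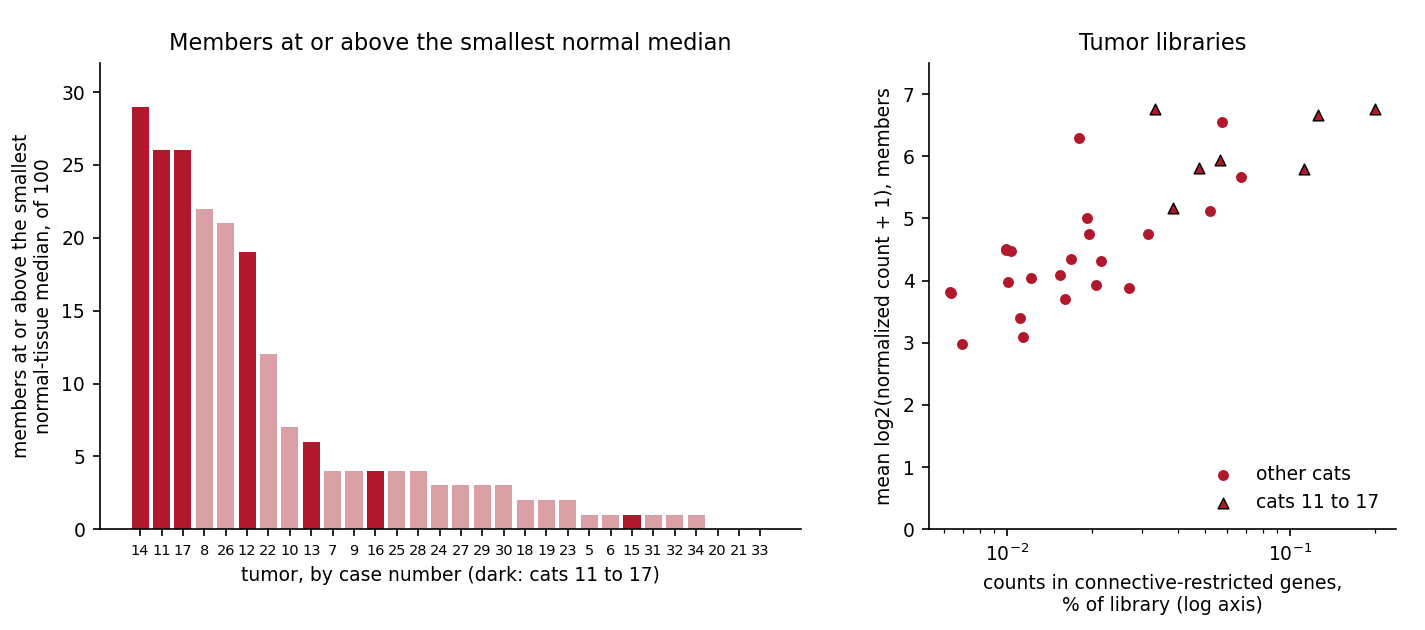
Left, number of the 100 members at or above their smallest normal median in each of the 30 tumors, with dark bars for cats 11 to 17; the bars fall from 29 to 0. Right, mean log2(normalized count + 1) over the members against the share of counts in CT-restricted genes (log axis) for the same tumors, with triangles for cats 11 to 17; the tumors with the lowest CT-restricted shares have mean levels under 5.

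Most pairs of members were positively correlated across tumors. Over the 30 T libraries the median correlation between 2 members was 0.32 on log2 values, and 90.4% of pairs were positive, where pairs of all ranked genes had a median of -0.0018 and 49.7% positive. Among the 23 tumors of the other cats the members had 0.23 and 82.5%. In normal tissue the same genes had lower medians, of 0.13 in AT (n = 16), 0.03 in CT (n = 11) and 0.07 in SM (n = 20). The first principal component held 39.0% of the members' variance in tumors, compared to 24.2% for AT, 33% for CT and 25.8% for SM. In the other cats alone it was 30.2% in tumors, 26.8% for AT, 38.7% for CT and 30.3% for SM, so tumors did not stand highest there. The share depends on the number of libraries, which differs between the tissues. The correlation of a member with the mean of the others was 0.58 in the middle member and above 0.5 for 61. It was highest for the member ranked 11 (0.90), and below 0 for 4, ranked 9, 66, 91 and 98. All of these points share their libraries and scaling factors, and are descriptions. The SD over T of log2 values was 1.89 in the middle member against 0.61 in the middle ranked gene. The members were chosen for low T medians, and no comparison was made with genes of equal level or spread. Neither the correlation nor the wider spread is therefore read as particular to the members. The SDs of the middle member and the middle ranked gene were 0.77 and 0.58 in AT, 0.94 and 0.58 in CT, and 0.89 and 0.60 in SM.

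The share of a tumor library's counts in CT-restricted genes moved with the members in the 23 tumors of the other cats. There its correlation with the members' mean level was 0.68 (Spearman's rho 0.59), and 0.50 without the 2 tumors farthest from the median share. Within the 7 tumors of cats 11 to 17 it was 0.44 (rho 0.36), and -0.21 without the farthest 2. In the same 7 tumors the SM-restricted share gave 0.65 (rho 0.61, 0.23 without the farthest 2), the AT-restricted share 0.57 (rho 0.43, -0.14) and the library total -0.53 (rho -0.50, 0.0095). The 42 CT-restricted genes held 0.00630% to 0.200% of a T library (median 0.0193%), 0.348% to 1.64% of a CT library and 0.0168% to 0.298% of an AT library. For AT-restricted genes the correlation over the other 23 tumors was -0.45 (rho -0.20, -0.19 without the farthest 2) and for SM-restricted genes -0.02 (rho -0.20, -0.40 without the farthest 2). The number of genes detected at equal depth gave 0.28 (rho 0.39) and the library total 0.21 (rho 0.30). In the 7 tumors of cats 11 to 17 the number of genes detected gave 0.34 (rho 0.46, -0.30 without the farthest 2). Over all 30 tumors, which mixes the 2 sets of cats, it gave 0.69 (rho 0.66, 0.64). There the CT-restricted share gave 0.80 (rho 0.77, 0.74) and the library total -0.48 (rho -0.27, -0.22). These share a library and are descriptions, and their part in the members' level was not tested. The level of the members in a tumor showed little relation to that in the same cat's normal tissue, with correlations of -0.05 for AT (n = 16, rho 0.01, 0.08 without the farthest 2), 0.14 for CT (n = 11, rho -0.04, 0.27) and 0.06 for SM (n = 20, rho 0.08, 0.30). Within the other cats alone the AT value was 0.58 (n = 11, rho 0.52), and 0.37 without the farthest 2.

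The rule did not contrast cats 11 to 17 with the other cats, but it is not independent of that contrast either. The T median that ranked the genes was taken over 30 tumors, of which 23 were of the other cats, so genes low in those 23 were favored, and the normal medians were likewise set mostly by the other cats. The counts and medians over the members below are therefore descriptions, given beside the same over all genes. In T, the mean level of the members was 5.16 to 6.76 in cats 11 to 17 (median 5.93, n = 7) and 2.98 to 6.56 in the others (median 4.31, n = 23). All 7 were above the median of the others, and the tumors of cats 11, 14 and 17 were above every other tumor. Of the 99 members that passed the filter, 22 were higher in cats 11 to 17 (adjusted p under 0.05, more than 2-fold, edgeR's quasi-likelihood test), where 12% of all 15450 genes tested were, and 1 was lower (0.33%). The median log2 fold change was 0.87 over the members and -0.01 over all genes. Much of this rested on the tumor of cat 14. Without it, 10 of 100 members were higher against a background of 11.7%, and the members' median was 0.55 against -0.10. With all T libraries thinned to the smallest total, 68 members passed the filter and 14 were higher against 2.17%. Members low in most tumors could pass that filter through the tumors of cats 11 to 17, so nothing is read from this excess. Without a filter 25 of 100 were higher against 25.2%, and by DESeq2 24 of 100 against 19%, so that the members' excess over all genes depended on the setting. More genes detected at equal depth moved with this contrast, as given above. Library totals moved with it too, at 957697 to 7876394 (median 5102237) in cats 11 to 17 and 5081459 to 14585035 (median 10421811) in the others. So did the tissue-restricted genes: the CT-restricted share of a T library was 0.0334% to 0.200% in cats 11 to 17 (median 0.0565%) and 0.00630% to 0.0670% in the others (median 0.0161%). The AT-restricted share had medians of 0.0293% and 0.0204%, and the SM-restricted share 0.840% and 0.646%. Their part in the result was not tested.

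ENSFCAG00000000639, ranked 17, had the largest rise among the members in the edgeR fit with all tumors. It was not the largest by DESeq2 (3.69, where the highest member had 4.35) or without the tumor of cat 14 (3.17 against 4.24). It was 46.0 to 22888 normalized counts in the tumors of cats 11 to 17 (median 383) and 0 to 206 in the other tumors (median 15.6), a log2 fold change of 7.01 (SE 0.82, adjusted p = 1.57e-07, edgeR). The value of 22888, from 40179 raw counts, belongs to the tumor of cat 14, and the next tumor had 569. Without it the log2 fold change was 3.17 (SE 0.63, adjusted p = 0.00044). In normal tissue the gene was 44.2 to 570 in AT, 253 to 976 in CT and 0 to 588 in SM. The tumor of cat 14 was thus 23.5 times the highest normal library, while the T median of 18.1 was below all 3 normal medians. The fitted difference of T against AT was 1.46 on the log2 scale and not called, and without this library it was -2.01. The difference of T against AT was -1.80 by DESeq2 and -2.88 with the cat as a block. Cat 14 has no AT library, so its tumor had no pair in the blocked fit. Whether DESeq2 used the count of that tumor unchanged was not examined. Neither value therefore shows the direction with that count kept.

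ENSFCAG00000011354, ranked 24, was 19.3 to 7788 in the tumors of cats 11 to 17 (median 109) and 0 to 237 in the others (median 15.6), a log2 fold change of 5.26 (SE 0.89, adjusted p = 5.12e-05, edgeR). Again the highest value came from the tumor of cat 14 and the next was 347. Without that library the log2 fold change was 1.66 (SE 0.84, adjusted p = 0.188), so that the call rests on it. DESeq2 gave 1.76 (SE 0.82, adjusted p = 0.108) and did not call it. Whether DESeq2 used the count of that tumor unchanged was not examined, so its value is no check with that count kept. The gene's fitted change of T against AT, -0.45 on the log2 scale, was -2.94 by DESeq2, -3.85 with the cat as a block and -3.13 without the tumor of cat 14. That tumor had no AT pair in the blocked fit. Both were picked, with their values seen, as the 2 largest rises in the edgeR fit with all tumors, an order that rests on the tumor of cat 14. The tumor of cat 14 was the highest tumor for 23 members, was more than 10 times the next tumor for 3 of them (ranks 17, 24 and 61) and exceeded every normal library for 9. The 5 most abundant members made up 64.8% of its member counts.

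The same contrast was fitted within each normal tissue. In AT (5 against 11 libraries) 0 members were higher or lower, where 0.247% of genes were higher and 0% lower. At an unadjusted p under 0.05 there were 12 (12.9% of all genes), and DESeq2 also called 0, where it called 6.94% of all genes higher and 0.105% lower. In CT (3 against 8), 3 members were higher where 20.2% of genes were, and 21 were lower where 5.31% were. The 21 had log2 fold changes of -2.70 to -1.10. The 3 CT libraries of cats 11 to 17 had 17981 to 18332 genes detected at equal depth, against 9691 to 13497 in the other 8. Their CT-restricted share was 0.724% to 1.64% against 0.348% to 0.678%. Their totals were 847003 to 2113445 counts against 863878 to 6329045. The part of these in the CT counts was not tested. The counts moved with the setting: library totals alone gave 10 higher (26.3% of all genes) and 12 lower (1.72%), and DESeq2 gave 8 (21.6%) and 19 (3.23%). In SM (3 against 17), 0 members were higher where 12.1% of genes were, with 8 at an unadjusted p under 0.05 in either direction (25.6% of all genes) and 0 higher by DESeq2 (8.82%), and 1 was lower (0.585%). The members' median log2 fold changes were -0.29 in AT, -0.47 in CT and -0.21 in SM, where the medians over all genes were -0.04, 0.34 and 0.04. Under library totals alone the members' medians were -0.07 in AT and turned to 0.019 in CT and 0.12 in SM, with 0.27, 0.83 and 0.39 over all genes. In SM the members' median was also near 0 by DESeq2 (-0.0022) and after thinning (-0.017).

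**Figure D5:**
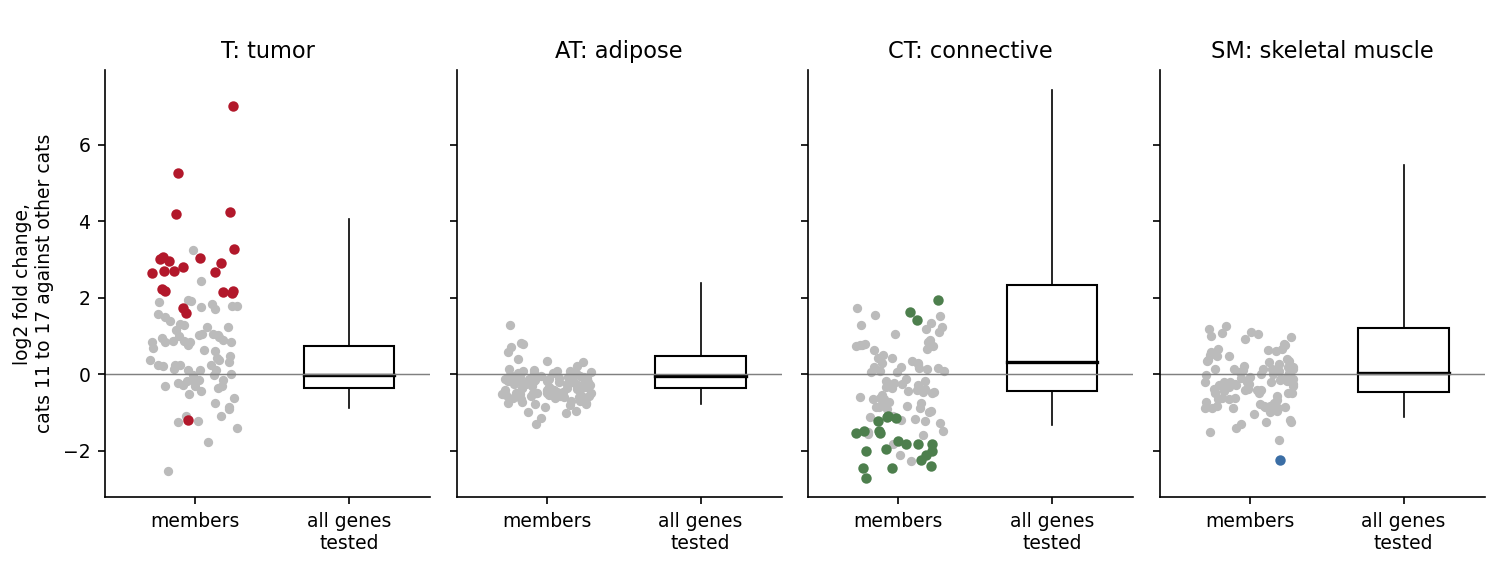
Log2 fold change of cats 11 to 17 against the other cats within each tissue, for the members (points, colored where the adjusted p is under 0.05 and the change over 2-fold) and for all genes tested (line, median; box, quartiles; whiskers, 5th to 95th percentile). In T 22 members are called higher and 1 lower, and in CT 3 higher and 21 lower.

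Whether the gap between T and NT differed between cats 11 to 17 and the others was fitted as an interaction. The members were chosen for a large gap measured mostly in the other cats, so a larger gap in those cats is partly built into the choice and the counts are descriptions. Within pairs, the mean over members of the log2 difference T minus AT was -2.50 ± 0.84 (SD, n = 5) in cats 11 to 17 and -4.02 ± 0.71 (n = 11) in the others. T minus CT was -1.77 ± 0.65 (n = 3) against -3.78 ± 1.11 (n = 8), and T minus SM -1.79 ± 0.78 (n = 3) against -3.60 ± 0.82 (n = 17). The 3 CT pairs include cat 14, and the 3 SM pairs include cat 11, whose tumor library had 957697 counts. In the unpaired fit the members' median difference in the gap was 1.22 for AT, 1.45 for CT and 1.21 for SM. The medians over all genes were -0.11, -0.18 and -0.03. By gene, in the unpaired fit, the gap differed for 1 member against AT (0.224% of all genes tested), 0 against CT (0.329%) and 0 against SM (1.11%), by edgeR's quasi-likelihood test at an adjusted p under 0.05. At an unadjusted p under 0.05 there were 29 members against AT (10.2% of all genes), 15 against CT (14.6% of all genes) and 16 against SM (13.2%). With the correlation between libraries of a cat modelled as a replicate block (limma), 19 members were called against AT (1.23% of genes), 6 against CT (0.696%) and 5 against SM (1.12%). Without the tumor of cat 14 the blocked fit called 13 (1.39%), 5 (0.427%) and 4 (1.04%), and the unpaired fit 0 in each, where 0.178%, 0.232% and 0.766% of all genes were called. These differences share the libraries of cats 11 to 17, and their higher number of detected genes moved with them and was not tested.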

How the data were processed

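Whole-number counts per gene were deposited by the authors for 77 libraries. RNA was extracted by Covaris truXTRAC, and libraries were made with the stranded SMARTer Pico kit from microdissected tissue. The study's methods name Trimmomatic and Kallisto on Felis_catus_9.0, whereas the submitters' processing notes name STAR and featureCounts. Which of these made the counts was not settled here. Groups were taken from sample titles, and outcome groups and subtypes were not used because the labels do not give them.

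Size factors were medians of ratios over 6527 genes with a count in every library, and a pseudocount of 1 was used on the log2 scale. Fits across all genes used edgeR 4.0.16 (TMM, filterByExpr, quasi-likelihood test, Benjamini-Hochberg adjustment) on 2 groups at a time. DESeq2 1.42.0 and limma 3.58.1 (R 4.3.3) served as alternatives. Only the unpaired edgeR fits on 2 groups were run on simulated data, and the DESeq2, blocked and interaction fits were not. For edgeR, SE is the log2 fold change divided by the root of F, for limma it is that change divided by the moderated statistic, and DESeq2 gives its own. Pairing follows the cat: the median correlation of deviations from the tissue means between T and the same cat's tissue was 0.176 for AT, 0.222 for CT and 0.121 for SM, against 0.00785, 0.0329 and 0.0259 for other cats. Each library is 1 specimen of 1 cat, and no 2 files were identical.

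The members and lists were chosen with earlier results of these data known. The identifiers named are the 2 with the largest ratio and the 2 members with the largest rise in T of cats 11 to 17. None of the identifiers matched the 39307 genes of the reference table, so 21 gene lists and the marker lists could not be used.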

Additional observations from a re-analysis of the deposited data

Results flagged for a closer look

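ENSFCAG00000000639, ranked 17, drew attention because a test of the difference itself found another gap between T and AT in cats 11 to 17 than in the rest. The log2 difference T minus AT was 6.60 higher in cats 11 to 17 (SE 1.41, adjusted p = 0.0177, edgeR's quasi-likelihood test). Its adjusted p was 0.0142 with library totals alone, 0.0172 without a filter, 0.0357 with the cat as a block (limma), 0.256 without the tumor of cat 14 and 0.0102 with both the block and that tumor left out. Without that tumor the difference was 2.90 in the unpaired fit (SE 0.99) and 2.91 in the blocked fit (SE 0.67). Cat 14 has no AT library, so no gap between T and AT could be measured within that cat. All 7 tumors of cats 11 to 17 were above the median of the other tumors. Its value in the tumor of cat 14 also lay far from the others: among the 7 tumors of cats 11 to 17 it was 14.48 on the log2(normalized count + 1) scale, and its gap to the next tumor was 0.597 of the group's range, above Dixon's critical value of 0.568. Of 9 groups of 5 to 8 samples examined, 1 was past the limit. By chance about 1 in 20 groups passes it, but that rate does not apply here: the gene was picked, with its values seen, for a rise whose size and rank depend on this tumor. The members were chosen on medians set mostly by the other cats, so this gene's difference between cats is not independent of the choice.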

How the results depend on the processing

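Of the main results under all alternatives, 138 values moved by less than the limit used (1.5 times for a count, the SD between libraries of the tissue, or between tumors, for a log2 value), 39 moved more and 2 medians changed direction. These were the members' medians for cats 11 to 17 within CT (-0.47) and SM (-0.21), which were 0.019 and 0.12 with library totals alone, and that within CT was -0.24 by DESeq2. As for membership, 32 of 100 genes were chosen again with CPM of library totals, 36 with the normal medians within 2-fold and 60 with no limit on their ratio. It was 67 to 98 under the others, with 94 for TMM factors. Against SM, library totals alone gave 36 members lower in T and a median of -0.77, and 85 higher and 0 lower in AT and 74 higher and 0 lower in CT. The replicate block gave a median of -3.15 for T against SM, 4 higher and 0 lower for AT against CT, and 19, 6 and 5 members for the interactions, or 13, 5 and 4 without the tumor of cat 14 (chosen after seeing the data). It changed no other count by over 1.5 times. For AT against CT, 4 were lower by DESeq2 (2.72% of all genes) and 6 without cats 11 to 17 (3.66%). Leaving out each tumor of cats 11 to 17 in turn gave 10 to 24 members higher (8.79% to 13.9% of all genes) and 0 to 1 lower (0.181% to 1.11%) in T, the 10 against 11.7% without cat 14, and 0 for the interaction against AT without the tumor of cat 14. Within T, thinning gave 14 higher (2.17%) and 0 lower (0.00925%) and library totals 0 lower (0.0388%). Within CT, higher members were 8 by DESeq2 (21.6%), 10 with library totals (26.3%) and 5 thinned (15.8%), and lower members 12 with library totals (1.72%). Within SM, library totals gave 3 higher (15.75%) and 0 lower (0.0797%), thinning 0 lower (0.0220%) and no filter 2 lower (0.863%). For ENSFCAG00000000639 the fitted T against AT change of 1.46 became -2.88 with the block, -1.80 by DESeq2, -3.32 without cats 11 to 17 and -2.01 without the tumor of cat 14. For ENSFCAG00000026205 the contrast of cats 11 to 17 in T, -0.15 and not called, was 0.0065 by DESeq2 and 0.19 with library totals. The cause of these moves was not tested, other than by leaving out that tumor. Totals under 2000000 counts in 3 T, 6 AT, 3 CT and 2 SM libraries limit precision for the lowest members.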

Other observations

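The tumors that kept many members at or above the smallest normal median shared them unevenly. The tumors of cats 11, 12, 14 and 17 shared 9 to 15 members in each pair, at most 57.7% of either list. Each of them shared 1 to 6 with the tumors of cats 8, 22 and 26, or 5.26% to 27.3%. The latter shared 5 to 8 among themselves, or 22.7% to 41.7%. Cats 11 to 17 are those whose tumors had more genes detected at equal depth than any other tumor, and the tumors of cats 11, 12 and 17 are the 3 T libraries under 2000000 counts. These overlaps were noticed after the values were seen and were not tested. They have no comparison with list size alone or with all ranked genes, so none is read as high or low.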
